A study of Saccharomyces cerevisiae S288C with 12 samples.

Results

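The 38 cell wall and septum genes of budding yeast described here are the genes that build, cross-link and reopen the wall around the cell. They were taken by gene symbol in the R64 annotation, all 38 symbols were found, and they are 38 of 6002 nuclear protein-coding genes. They fall into 9 families, which are glucan synthases, GAS glucanosyltransferases, CRH transglycosylases, mannoproteins with a glycosylphosphatidylinositol (GPI) anchor, PIR proteins, wall glucanases, chitin synthases, adhesion proteins and septum-degrading proteins. What was measured at them is Cse4, the centromeric histone H3 variant (CENP-A), by chromatin immunoprecipitation and sequencing (ChIP-seq).

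The study asked whether replacing lysines 215 and 216 of Cse4 changes where the protein is deposited. The strains carried Cse4 K215/216A (both lysines replaced by alanine), Cse4 K215/216R (both replaced by arginine) or wild type Cse4, and each strain gave 2 ChIP libraries. Every strain, wild type included, was deleted for PSH1 (psh1delta), whose product is a ubiquitin ligase for Cse4. In every strain the Cse4 protein bore a 6His-3HA tag and was expressed from the GAL promoter, with cells grown in 2% raffinose at 30 degrees C and induced with 2% galactose for 2 hours. All values therefore describe overexpressed, tagged Cse4 in cells without Psh1, and no strain with normal Cse4 levels was compared. Nothing in the labels ties the replicates to separate cultures. The p-values between strains therefore measure no more than the library-to-library spread, which may be technical.

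The yeast wall is a mesh of beta-glucan with some chitin and an outer coat of mannoproteins. Glucan synthases in the plasma membrane spin out the glucan, Gas proteins elongate it, and Crh proteins join chitin to it. Most mannoproteins reach the wall by a GPI anchor, while PIR proteins are bound to glucan directly. At division a chitin septum is laid down at the bud neck, and the daughter then releases chitinase and glucanases that cut it open. Cse4 normally marks the centromere, where it carries the kinetochore, and overexpressed Cse4 is known to enter chromatin elsewhere, a deposition that Psh1 limits.

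A gene was counted as having a peak when a Cse4 peak overlapped its body or the 500 bp upstream of its annotated start by at least 1 bp. It was counted as having an upstream summit when the highest point of a peak lay in those 500 bp, and a strain was credited with a call when both of its libraries made it. Positions are given in bp from the annotated gene start, negative upstream, and coordinates are sacCer3. The fold of a peak is the authors' own value, the ratio of the fragment pileup at the summit to the local background, and it was used within each library and set side by side between libraries without a test. Depth, taken as the lowest local background of a library in fragments per base, was 146 and 148 in K215/216A, 86.2 and 156 in K215/216R, and 59.5 and 126 in wild type. A gene without a peak had no enrichment that passed a q of 0.05 at that depth.

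Cse4 peaks were found at most of the cell wall genes in most libraries, at about the rate of the genome. The K215/216A libraries had a peak at 26 and 28 of the 38 genes (68.4% and 73.7%), where 65.0% and 66.4% of all genes had one. The K215/216R libraries had a peak at 21 and 26 genes (55.3% and 68.4%), against 52.3% and 65.6% of all genes. The wild type libraries had a peak at 18 and 25 genes (47.4% and 65.8%), against 46.3% and 63.7% of all genes. In each library the share of cell wall genes was above that of all genes by a few percentage points or less, except in replicate 2 of K215/216A, where the gap was wider. Cell wall genes are also longer, with a median of 1357 bp against 1200 bp for all genes, and the part of length in these shares was not tested.

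The share of upstream summits fell short of the genome rate in some libraries and lay close to it in the rest. An upstream summit was present at 8 and 12 cell wall genes in the K215/216A libraries (21.1% and 31.6%), where 31.2% and 32.5% of all genes had one. The K215/216R libraries had an upstream summit at 9 and 11 of the genes (23.7% and 28.9%), against 23.0% and 28.4% of all genes. The wild type libraries had one at 7 and 5 (18.4% and 13.2%), against 19.0% and 28.3% of all genes. The share of cell wall genes lay below that of all genes by the widest margin in K215/216A replicate 1 and wild type replicate 2. It was within 1 gene of it in every other library.

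**Figure D1:**
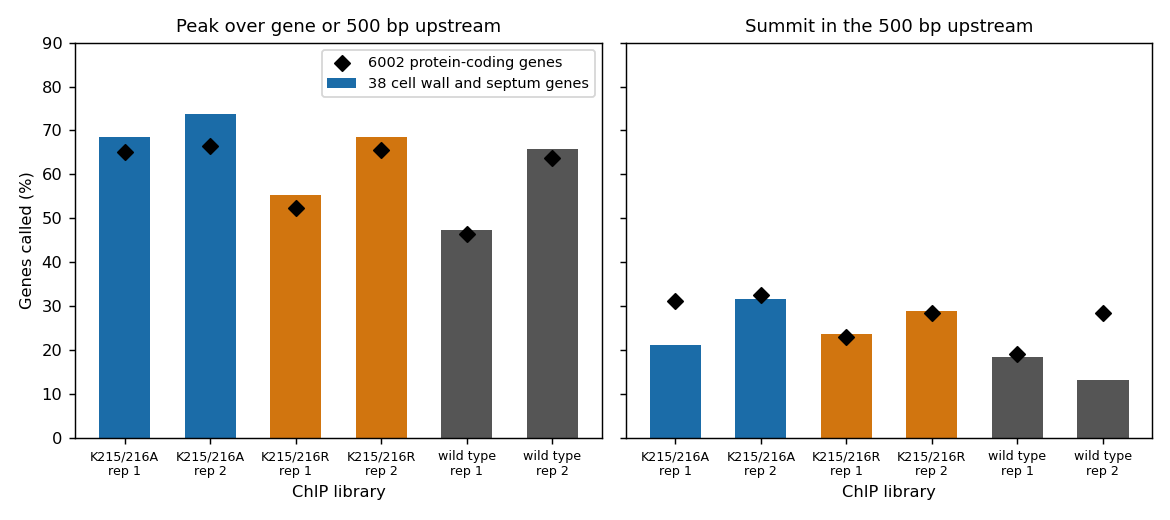
Percent of genes called in each ChIP library, with bars for the 38 cell wall and septum genes and diamonds for the 6002 protein-coding genes. The left panel shows a peak over the gene or its 500 bp upstream, where bars and diamonds lie close together, and the right panel shows a summit in the 500 bp upstream, where the bars of K215/216A replicate 1 (21.1%) and wild type replicate 2 (13.2%) lie below the diamonds (31.2% and 28.3%).

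By strain, both K215/216A libraries had a peak at 24 genes (63.2%), against a background of 57.8% of all genes. Both K215/216R libraries had one at 20 genes (52.6%, background 49.4%), and both wild type libraries at 18 genes (47.4%, background 43.6%). All 6 libraries had a peak at 13 genes (34.2%, background 35.4%): GSC2, GAS3, GAS5, CRH1, UTR2, TIR1, TIR3, TIR4, DAN1, TOS6, CHS1, CHS3 and CTS1. An upstream summit was shared by both libraries at 6 genes in K215/216A (15.8%, background 23.8%), at 7 in K215/216R (18.4%, background 17.6%) and at 4 in wild type (10.5%, background 15.0%). It was present in all 6 libraries at 3 genes (7.9%, background 9.50%), and these were TOS6, CHS3 and GAS3. A summit inside the gene was shared by both libraries at 14 genes in each strain (36.8%), above the background of 26.8% in K215/216A, 24.7% in K215/216R and 22.4% in wild type. Since cell wall genes are longer than all genes, length may enter this excess, and its part was not tested.

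Both K215/216A libraries had a peak at more of the genes than either wild type library, but no comparison of strains could pass a test with 2 libraries each. K215/216A averaged 27.0 ± 1.41 genes with a peak and wild type 21.5 ± 4.95 (SD, n = 2 each), a difference of 5.5 genes by an exact permutation test over libraries, two-sided (p = 0.333, adjusted p = 0.667 over 6 tests). K215/216R averaged 23.5 ± 3.54 genes, 2.0 above wild type (exact permutation p = 0.667, adjusted p = 0.8), and K215/216A was 3.5 above K215/216R (exact permutation p = 0.667, adjusted p = 0.8). An upstream summit was present at 10 ± 2.83 genes in K215/216A, at 10 ± 1.41 in K215/216R and at 6.0 ± 1.41 in wild type (SD, n = 2 each). The libraries of K215/216A and of K215/216R all stood above both wild type libraries in this count, a difference of 4.0 genes each, and the K215/216A minus K215/216R difference was 0.0 genes. The exact permutation p was 0.333 (adjusted p = 0.667) for each mutant against wild type in this count. For every comparison here 0.333 is the smallest p that 2 libraries against 2 can give. With lists cut to the same 3123 best peaks, the K215/216A minus wild type difference in genes with a peak was 2.0, and with pileups thinned to the lowest depth it was 3.0. Thinning also took the upstream differences from wild type to 1.5 genes for K215/216A and 2.0 for K215/216R, and peaks with a −log10 q of at least 10 gave 0.0 and 1.0. With 250 bp upstream the K215/216R minus wild type difference was 1.0, and leaving out wild type replicate 1, the shallowest library, left a difference of 2.0 genes with a peak between K215/216A and wild type.

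The peaks at cell wall genes were of ordinary height. Their median fold was 1.44 over 38 peaks and 1.48 over 39 peaks in the K215/216A libraries, where the median of all peaks was 1.43 and 1.45. In the K215/216R libraries it was 1.57 over 31 peaks and 1.48 over 44 peaks, beside 1.57 and 1.46 for all peaks. In the wild type libraries it was 1.70 over 28 peaks and 1.50 over 40 peaks, beside 1.66 and 1.48. TOS6 and CHS3 stood well above these medians in all 6 libraries, and CWP1 in K215/216A replicate 1 (2.80) and K215/216R replicate 2 (2.43), as the map of the highest fold per gene shows.

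**Figure D2:**
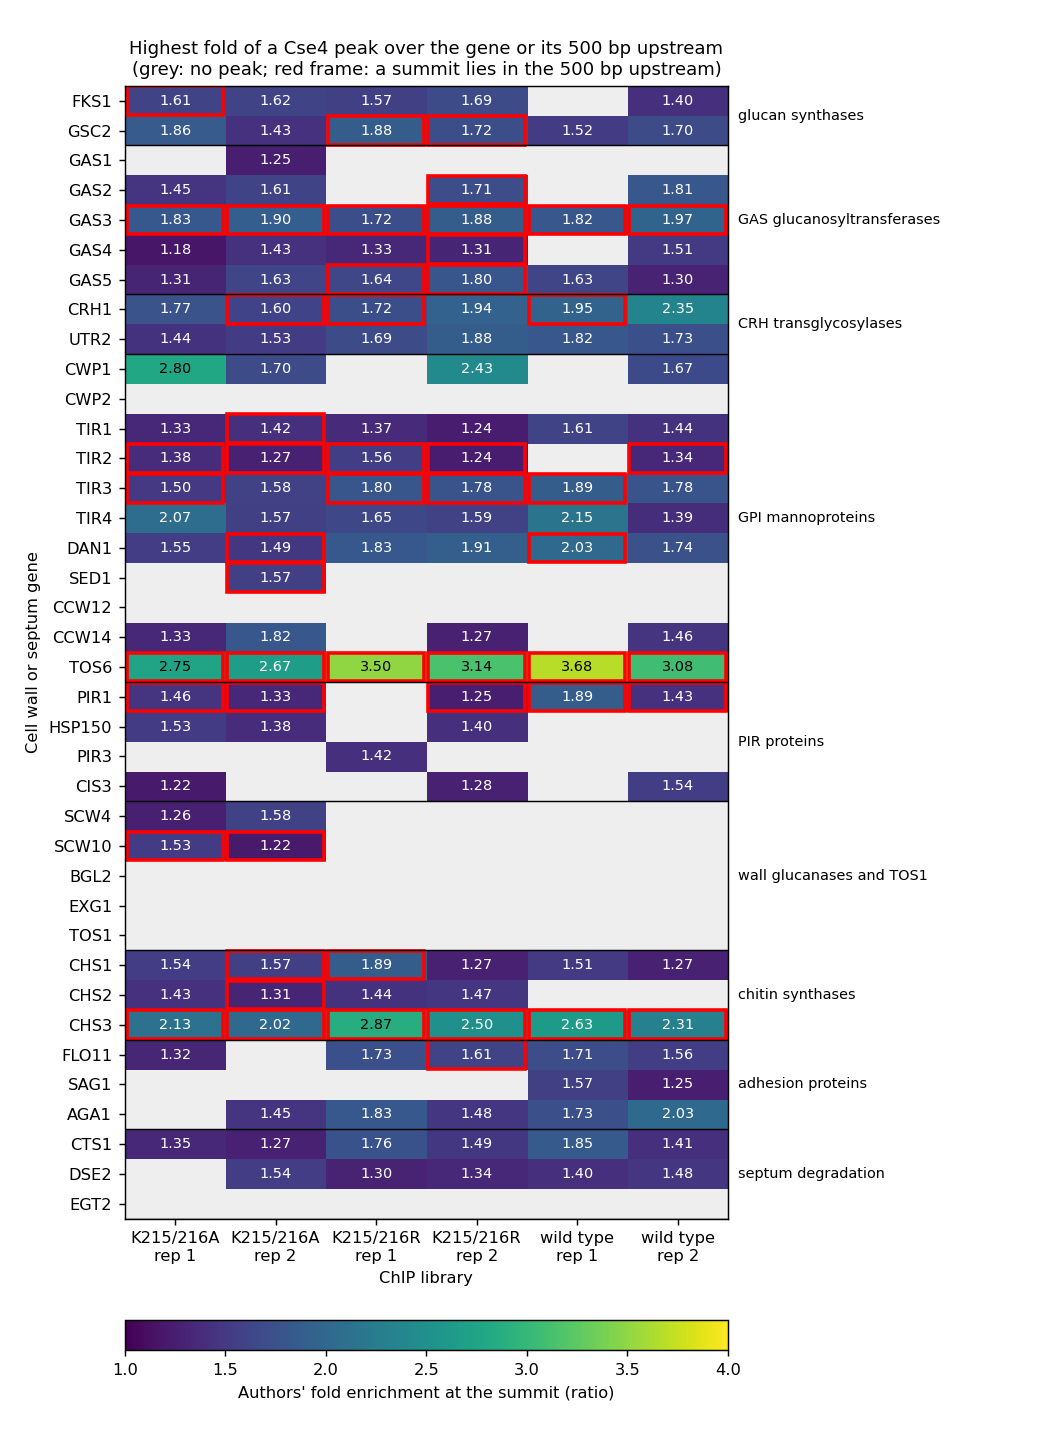
Highest fold of a Cse4 peak over each of the 38 genes or its 500 bp upstream (rows, by family) in the 6 ChIP libraries (columns), as the authors' ratio on a colour scale. Grey cells have no peak and red frames mark a summit in the 500 bp upstream: TOS6 and CHS3 are framed in all 6 libraries with folds of 2.02 to 3.68, and the 6 rows that are grey throughout are the genes without a peak.

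TOS6 carried the strongest Cse4 peak of the set in 5 of 6 libraries. TOS6 (YNL300W, chromosome XIV, 65744 to 66052) encodes a small GPI-anchored wall protein named as a target of SBF, the G1 transcription factor of Swi4 and Swi6. Its peak had a fold of 2.75 and 2.67 in the K215/216A libraries, 3.50 and 3.14 in the K215/216R libraries, and 3.68 and 3.08 in the wild type libraries. Both K215/216A values lay below the 4 others, and those of K215/216R and wild type overlapped. Among all peaks of its library the TOS6 peak ranked 21 and 27 by fold in K215/216A, 3 and 8 in K215/216R, and 3 and 2 in wild type. The fold is a ratio to a local background that was itself 1.23 and 1.19 times the genome background in the K215/216A libraries, 1.0 and 1.11 times in K215/216R, and 1.03 and 1.18 times in wild type, and its part in the difference in fold was not tested.

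The summit was at −245 bp in 5 libraries and at −179 bp in wild type replicate 1. The peak was 662 to 931 bp long, so that it ran from the upstream region across much or all of the 309 bp gene. The neighbouring ribosomal protein gene RPL18B is transcribed away from TOS6 across a gap of 1181 bp, and the summit lay outside its 500 bp upstream. The pileup at the summit was 497 and 473 fragments in K215/216A, 304 and 548 in K215/216R, and 228 and 462 in wild type.

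Of the other mannoprotein genes, the TIR and DAN1 genes, whose products are wall proteins made in cold or oxygen-poor cells, had weaker peaks, with summits in the gene at TIR1 and TIR4, upstream at TIR2, and on both sides of the start at TIR3 and DAN1. A TIR1 peak had its summit at 231 or 232 bp in all 6 libraries, with a fold of 1.33 and 1.42 in K215/216A, 1.37 and 1.24 in K215/216R, and 1.61 and 1.44 in wild type. Both wild type folds lay above the 4 mutant folds, but ranks within each list did not separate the strains. By fold this peak stood at the 27.9 and 45.7 percentile in K215/216A, 19.7 and 12.1 in K215/216R, and 42.8 and 43.5 in wild type. TIR4 had summits at 132 to 298 bp in all libraries with folds of 1.29 to 1.50, and a further summit at −575 to −753 bp. DAN1 had a summit between −52 and 307 bp in every library. The fold there was 1.55 and 1.49 in K215/216A, 1.83 and 1.91 in K215/216R, and 2.03 and 1.71 in wild type. A further DAN1 summit lay at 832 bp in K215/216R replicate 1 (1.70) and at 826 bp in wild type replicate 2 (1.74). TIR1 to TIR4 are similar in sequence, and how reads that match several genes were treated is not given in the sources used here.

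TIR3 and TIR2 had an upstream summit in both libraries of at least 1 strain, and TIR1 had one in K215/216A replicate 2, at −256 bp with a fold of 1.42. The TIR3 upstream summit lay within −192 to −194 bp, with a fold of 1.50 in K215/216A replicate 1, 1.80 and 1.78 in K215/216R, and 1.89 in wild type replicate 1. In the remaining library of K215/216A and of wild type a single long peak of 665 and 746 bp covered the same stretch with its summit in the gene, at 226 and 230 bp. The TIR3 call, made in both libraries of K215/216R alone, therefore reflects where the summit of a merged peak fell. TIR2 had an upstream fold of 1.38 and 1.27 in K215/216A, 1.56 and 1.24 in K215/216R, and 1.34 in wild type replicate 2, with no peak in wild type replicate 1. At equal depth the TIR2 peak was left in 1 library.

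The CWP1 and CWP2 genes, which encode GPI-anchored mannoproteins and lie side by side on chromosome XI in the same orientation, were flanked by strong peaks that mostly fell outside the counted windows. In the 1600 bp between them a peak had its summit at −779 to −889 bp from CWP1, with a fold of 2.80 and 2.46 in K215/216A, 2.60 and 2.43 in K215/216R, and 2.41 and 2.52 in wild type. The strains overlapped, and by fold the peak stood at the 96.3 percentile of its list or higher in each library. It reached the 500 bp upstream of CWP1 in K215/216A replicate 1 and K215/216R replicate 2 and stopped 29 to 109 bp short of it in the 4 other libraries. CWP1 also had a peak with its summit at 785 bp, past the end of the 720 bp gene, with a fold of 1.46 and 1.70 in K215/216A, 1.54 in K215/216R replicate 2 and 1.67 in wild type replicate 2.

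CWP2 (YKL096W-A, chromosome XI, 259253 to 259531) had no peak in its window in any library, although one of the strongest peaks near any of the 38 genes lay upstream of it. The summit was at −1082 to −1088 bp, between MTC2 and YKL097C, and the fold was 3.12 and 3.05 in K215/216A, 3.62 and 3.33 in K215/216R, and 2.98 and 2.61 in wild type. The K215/216R values were above those of K215/216A, and these above those of wild type. The peak ranked between 2 and 27 in its list. SED1, the main GPI protein of resting cells, and CCW14, another mannoprotein gene, had peaks of at most 1.82-fold, and SED1 was called in K215/216A replicate 2 alone.

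The glucan synthase genes FKS1 and GSC2 encode alternative catalytic subunits of the same enzyme. Each had summits near the start and near the end of the gene in some libraries, and GSC2 also had a peak further upstream. At GSC2 (YGR032W, chromosome VII, 548264 to 553951), the subunit gene used under stress, an upstream peak had its summit at −403 and −399 bp in the K215/216R libraries, with folds of 1.88 and 1.72. In K215/216A replicate 1 and both wild type libraries a peak of the same stretch had its summit at −533, −529 and −533 bp, with folds of 1.86, 1.52 and 1.70. The upstream call that set K215/216R apart thus depended on the 500 bp limit. In K215/216A replicate 2 one peak of 922 bp covered the stretch, with its summit at 38 bp. A summit at 38 bp was also present in K215/216A replicate 1, K215/216R replicate 2 and wild type replicate 2. At the end of GSC2 a summit lay at 5647 bp in K215/216R replicate 2 (1.64) and wild type replicate 2 (1.40).

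FKS1, the subunit gene used in growth, had a highest fold of 1.61 and 1.62 in K215/216A, 1.57 and 1.69 in K215/216R, and 1.40 in wild type replicate 2, with no peak in wild type replicate 1. The summits lay from −1 to 329 bp. In the K215/216A libraries a second peak had its summit at 5590 bp, at the end of the gene. The summit of the same peak lay at −507 bp from the downstream gene GAS2, just beyond its 500 bp.

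Among the 5 GAS genes, which encode the enzymes that lengthen glucan chains, GAS3 was the one with an upstream summit in every library. GAS3 (YMR215W, chromosome XIII, 696796 to 698370) had an upstream fold of 1.83 and 1.90 in K215/216A, 1.45 and 1.84 in K215/216R, and 1.77 and 1.77 in wild type. Both K215/216A values lay above both wild type values, and those of K215/216R ranged on either side of wild type. The summit was at −382 or −383 bp in 4 libraries and at −462 and −407 bp in K215/216R, and since the gap to the upstream gene SCJ1, a chaperone gene, is 312 bp, each of these summits lay inside the end of SCJ1. A second GAS3 summit lay at 16 bp in 5 libraries, with folds of 1.72 to 1.97.

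GAS5 had the same pattern of upstream calls as GSC2. Its upstream summit was at −335 bp in both K215/216R libraries (1.64 and 1.55), and the same position is in the 500 bp upstream of the divergent gene SIL1. In K215/216A replicate 2 and both wild type libraries the upstream peak reached into the 500 bp but had its summit at −736, −734 and −719 bp, inside SIL1. K215/216R replicate 1 had a second peak there, at −719 bp. In K215/216A replicate 1 a peak of 1249 bp covered the stretch, with its summit at 327 bp. A summit in the body at 322 to 329 bp was present in all 6 libraries, with a fold of 1.31 and 1.41 in K215/216A, 1.44 and 1.35 in K215/216R, and 1.60 and 1.28 in wild type. GAS2 and GAS4, which serve the spore wall, had a peak in 4 and 5 libraries, and GAS1, the main enzyme of growing cells, had a peak of 1.25-fold in K215/216A replicate 2 alone.

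The CRH genes, whose products join chitin to glucan, both had a peak in all 6 libraries. At CRH1 a summit lay on the gene start in all 6 libraries. It was at 29 and −34 bp in K215/216A, −34 and 29 bp in K215/216R, and −34 and 24 bp in wild type. The folds were 1.77, 1.60, 1.57, 1.94, 1.87 and 2.35 in that order of libraries. The upstream call at CRH1 therefore varied between libraries of the same strain. All 6 libraries also had a CRH1 summit inside the gene, at 631 to 792 bp. It was higher than the start summit in K215/216R replicate 1 (1.72) and wild type replicate 1 (1.95). UTR2 had a summit at 945 or 947 bp in 5 libraries, with a fold of 1.53 in K215/216A replicate 2, 1.69 and 1.88 in K215/216R, and 1.82 and 1.73 in wild type.

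The PIR genes encode wall proteins with internal repeats. PIR1 (YKL164C, chromosome XI, 141794 to 142819) had an upstream summit in 5 libraries and no peak in K215/216R replicate 1. The summit lay at −200 bp in both K215/216A libraries (1.46 and 1.33) and in K215/216R replicate 2 (1.25), and at −14 bp in both wild type libraries (1.89 and 1.43). The mutant peaks were 371, 250 and 325 bp long and also covered the −14 bp position, beside peaks of 146 and 142 bp in wild type. The wild type peaks ended at chromosome positions 142844 and 142842, short of the −200 bp summit at 143019. The mutant peaks thus reached further upstream, and this difference was not tested. PIR1 was left with a peak in 2 libraries at equal depth, both of them wild type. Wild type replicate 1, the shallowest library, is left unchanged by thinning, so its PIR1 peak could not be lost. HSP150 had a peak in both K215/216A libraries, with folds of 1.53 and 1.38 at 1099 bp, and in neither wild type library. In K215/216R replicate 2 its summits lay elsewhere, at −558 bp (1.40) and 46 bp (1.37). At equal depth HSP150 was left with a peak in K215/216A replicate 1 and K215/216R replicate 2. CIS3 had a peak in 3 libraries and PIR3 in 1, with folds of 1.22 to 1.54.

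**Figure D3:**
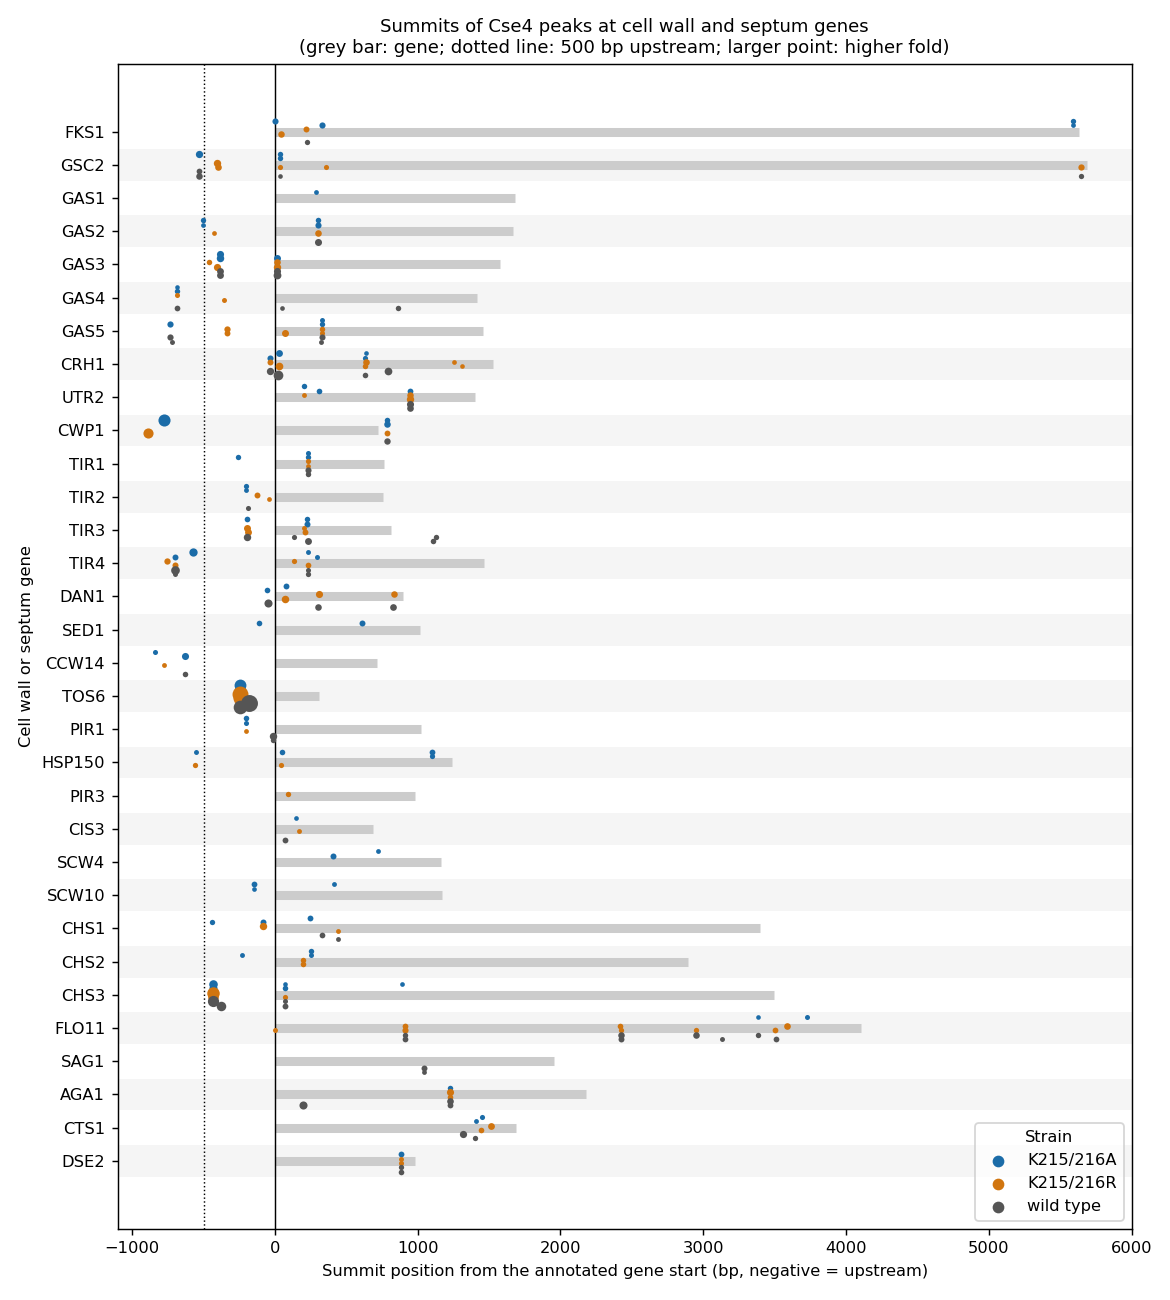
Position of every Cse4 summit at the cell wall and septum genes that had a peak, in bp from the annotated gene start, with blue for K215/216A, orange for K215/216R and dark grey for wild type, and larger points for higher folds. Light grey bars are the genes and the dotted line marks 500 bp upstream; the summits of TOS6 at −245 bp and CHS3 at −432 bp stand out, PIR1 splits between −200 bp and −14 bp, and GSC2 has summits on both sides of the line.

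The wall glucanase genes held few peaks. SCW4 and SCW10, which encode related glucanase-like wall proteins, had a peak in both K215/216A libraries and in no other library. SCW4 had folds of 1.26 and 1.58 with summits at 723 and 409 bp. SCW10 had folds of 1.53 and 1.22 with an upstream summit at −147 bp in both K215/216A libraries, and 1 of these peaks was left at equal depth, while both SCW4 peaks were left. All 6 libraries had a peak at −894 or −895 bp from SCW4, outside its window, with a fold of 1.85 and 1.76 in K215/216A, 1.89 and 1.61 in K215/216R, and 2.12 and 1.92 in wild type. BGL2 and EXG1, which encode an endo- and an exo-glucanase, and TOS1 had no peak in their windows in any library.

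The chitin synthase genes had peaks in all or most libraries. CHS3 (YBR023C, chromosome II, 284428 to 287925), which encodes the enzyme that makes most of the wall chitin and the ring at the bud neck, had an upstream fold of 2.13 and 2.02 in K215/216A, 2.87 and 2.50 in K215/216R, and 2.63 and 2.31 in wild type. Both K215/216A values lay below the 4 others, as at TOS6, and K215/216R and wild type overlapped. The local background at this summit was 1.45 and 1.33 times the genome background in K215/216A, 1.0 and 1.12 times in K215/216R, and 1.0 and 1.30 times in wild type, and its part in the difference was not tested. The summit was at −432 bp in 5 libraries and at −379 bp in wild type replicate 2, in the gap of 1519 bp to the divergent gene SCO2. A second, weaker summit lay just inside the gene at 68 to 74 bp in the 5 libraries other than K215/216R replicate 1, with folds of 1.19 to 1.55.

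CHS2, the chitin synthase of the primary septum, had a peak near its start in all 4 mutant libraries and in neither wild type library. The fold was 1.43 and 1.31 in the K215/216A libraries, beside 1.44 and 1.47 in those of K215/216R, with the summit of the body peak at 254 bp in K215/216A and 200 bp in K215/216R. This pattern was held by 1 of the 38 genes (2.6%), beside 1.13% of all genes, and the CHS2 peaks were left in the 4 mutant libraries at equal depth. CHS1, the chitin synthase that repairs the wall after separation, had a peak in all 6 libraries, with a highest fold of 1.54 and 1.57 in K215/216A, 1.89 and 1.27 in K215/216R, and 1.51 and 1.27 in wild type. Its summits were scattered from −439 to 441 bp.

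The adhesion genes had peaks mainly inside their coding sequences, and more of these genes had a peak in wild type. FLO11, SAG1 and AGA1 encode a flocculin, the alpha-agglutinin and the anchor subunit of the a-agglutinin. Of these 3 genes a peak was found at 1 and 1 in the K215/216A libraries, at 2 and 2 in the K215/216R libraries, and at 3 and 3 in the wild type libraries. The share of all genes with a peak was 65.0% and 66.4% in K215/216A, 52.3% and 65.6% in K215/216R, and 46.3% and 63.7% in wild type. At equal depth the counts of adhesion genes were 1 and 1 in K215/216A, 2 and 2 in K215/216R, and 3 and 2 in wild type. The count of wild type replicate 1 could not fall, since thinning leaves that library unchanged. With 3 genes chosen among 38, it is a description.

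SAG1 had a peak of 1.57 and 1.25 in the wild type libraries, both at 1043 bp, and none in the 4 mutant libraries. That pattern was held by 1 of 38 genes (2.6%), beside 0.267% of all genes. At equal depth the SAG1 peak was left only in wild type replicate 1, the library that thinning does not change. AGA1 had a summit at 1223 or 1224 bp in 5 libraries. Its fold was 1.45 in K215/216A replicate 2, 1.83 and 1.48 in K215/216R, and 1.73 and 1.53 in wild type. The highest AGA1 fold, 2.03, was that of a further summit at 197 bp in wild type replicate 2. FLO11, a gene of 4104 bp, had 2 and 0 peaks in K215/216A, 3 and 5 in K215/216R, and 4 and 4 in wild type. Summits at 911 or 912 bp and at 2419 to 2427 bp recurred in all K215/216R and wild type libraries and in neither K215/216A library. A FLO11 summit just upstream of the gene, at −2 bp, was present in K215/216R replicate 2 alone, with a fold of 1.30. FLO11 and AGA1 hold internal repeats, and how reads that match several places were treated is not given in the sources used here.

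The septum-degrading genes act when the daughter cuts itself free. CTS1, the endochitinase gene, had a peak in its last part, with summits at 1316 to 1512 bp of 1689 bp, and a fold of 1.35 and 1.27 in K215/216A, 1.76 and 1.49 in K215/216R, and 1.85 and 1.41 in wild type. Both K215/216A values lay below the 4 others. DSE2, a daughter-specific gene, had a summit at 881 or 883 bp in 5 libraries, with a fold of 1.54 in K215/216A replicate 2, 1.30 and 1.34 in K215/216R, and 1.40 and 1.48 in wild type. EGT2, which acts in separation in early G1, had no peak in its window in any library.

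Patterns that set one strain apart held few of the 38 genes. Both K215/216A libraries and neither wild type library had a peak at 4 genes (10.5%), CHS2, SCW4, HSP150 and SCW10, beside 5.91% of all genes. Both K215/216R libraries and neither wild type library had a peak at CHS2 (background 1.48%), and both wild type libraries and neither K215/216A library at SAG1 (background 1.20%). SAG1 was also the gene with a peak in both wild type libraries and neither K215/216R library (background 0.950%). Between the mutants, SCW4 and SCW10 had a peak in both K215/216A libraries and neither K215/216R library (background 3.80%), and 0 genes showed the opposite (background 1.18%). For upstream summits, SCW10 had one in both K215/216A libraries and in no wild type or K215/216R library (backgrounds 4.90% against wild type and 3.75% against K215/216R). GSC2 and GAS5 had one in both K215/216R libraries and in no wild type or K215/216A library (backgrounds 1.32% against wild type and 0.950% against K215/216A). The patterns of all 4 mutant libraries without wild type (background 0.716%), of wild type without K215/216A (background 1.17%), without K215/216R (background 1.12%) and without either mutant (background 0.500%) held 0 of the genes, and 19 genes (50.0%) had no upstream summit in any library (background 51.0%). These are counts of 1 to 4 genes, and the GSC2 calls turned on the 500 bp limit. At GAS5 a peak overlapped the 500 bp upstream in every K215/216A and wild type library too, with its summit beyond that limit or inside the gene.

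No library had a peak at 6 of the genes (15.8%, background 19.0%), which were TOS1, BGL2, CWP2, CCW12, EXG1 and EGT2. Several of them lay beside strong peaks that recurred in every library. CCW12, which encodes a mannoprotein needed for a stable wall, had a peak 378 bp past its end, 8 bp past the end of the convergent gene AHP1, with a fold of 2.64 and 2.72 in K215/216A, 2.57 and 2.99 in K215/216R, and 2.24 and 2.19 in wild type. Both wild type values lay below the 4 mutant values. EXG1 had a peak at −907 to −1029 bp, inside the upstream gene ECM38, with a fold of 2.11 and 2.55 in K215/216A, 3.19 and 2.88 in K215/216R, and 2.86 and 2.01 in wild type. The strains overlapped there except that both K215/216R values were the highest.

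EGT2 had a weaker peak at −744 to −764 bp in all 6 libraries, with a fold of 1.32 and 1.49 in K215/216A, 1.61 and 1.53 in K215/216R, and 1.58 and 1.43 in wild type. At its median position this summit lay 29 bp from the start of the divergent gene MDJ2. SED1, which had no peak in its window in 5 libraries, had one beyond its end inside SHU2, with a fold of 1.45 and 1.46 in K215/216A, 2.58 and 2.08 in K215/216R, and 2.27 and 1.89 in wild type. Both K215/216A values lay below the 4 others.

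**Figure D4:**
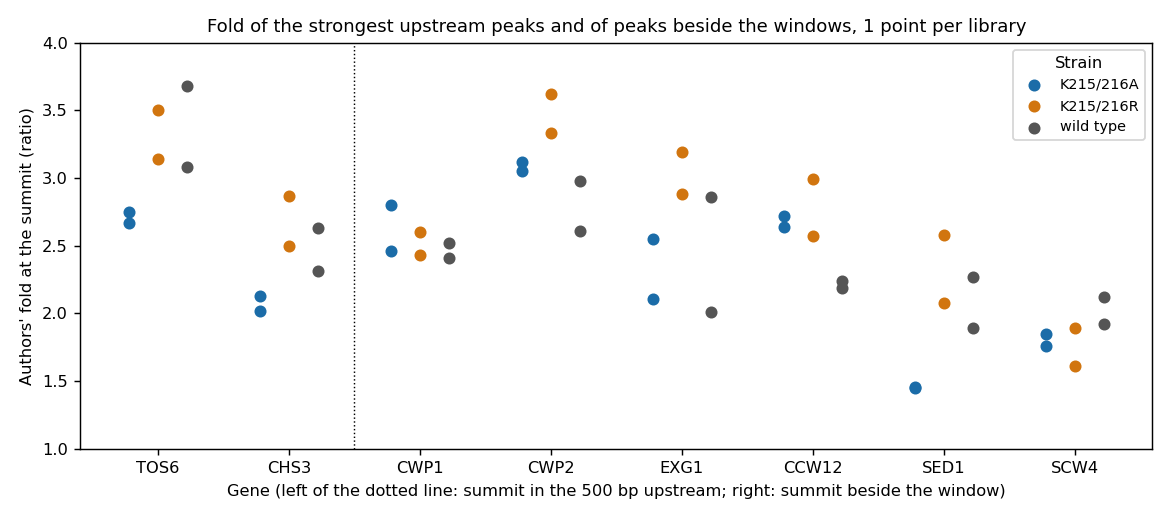
Authors' fold (ratio) of the Cse4 peaks at TOS6 and CHS3, whose summits lie in the 500 bp upstream, and of peaks beside the windows of CWP1, CWP2, EXG1, CCW12, SED1 and SCW4, with 1 point per library and blue for K215/216A, orange for K215/216R and dark grey for wild type. At TOS6, CHS3 and SED1 both K215/216A points lie below the 4 others, and at CCW12 both wild type points (2.24 and 2.19) lie below the 4 mutant points.

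With the upstream stretch widened to 1000 bp, more cell wall genes than the background had a summit there. Both libraries had such a summit at 22 genes in K215/216A (57.9%, background 41.7%), at 19 in K215/216R (50.0%, background 33.8%) and at 14 in wild type (36.8%, background 29.2%). All 6 libraries had one at 10 genes (26.3%, background 21.1%), which were TIR3, TIR4, CWP1, TOS6, GAS1, GAS3, GAS4, SCW4, EGT2 and CHS3. At 500 bp the corresponding shares were below the background in K215/216A and wild type. Some of these summits lay inside a neighbouring gene, HRT1 for GAS4 and FKS3 for GAS1.

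The 64 other genes of wall assembly, daughter separation, chitin synthase partners, wall integrity signalling, flocculation, yapsins and SBF, listed from general knowledge, had peaks at shares a few points above those of all genes in the mutants and further above in wild type. Both libraries had a peak at 39 of them in K215/216A (60.9%, background 57.8%), 35 in K215/216R (54.7%, background 49.4%) and 36 in wild type (56.2%, background 43.6%), and all 6 libraries at 27 (42.2%, background 35.4%). The share in wild type was above the 47.4% of the 38 genes. All 6 had an upstream summit at 5 (7.8%, background 9.50%), which were KRE6, PST1, ACF2, SCW11 and NCA3. KRE6, which takes part in making beta-glucan branches, had an upstream fold of 1.45 and 1.39 in K215/216A, 1.36 and 1.51 in K215/216R, and 1.35 and 1.32 in wild type. The genes of the SBF subunits, SWI4 and SWI6, had a peak in both libraries of 0 strains. The 4 yapsin genes in the list, YPS1, MKC7, YPS3 and YPS7, had a peak in both libraries of each strain. They encode proteases anchored at the cell surface.

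At the 11 other mannoprotein and flocculin genes a peak was found in both libraries at 3 in K215/216A (27.3%, background 57.8%), 5 in K215/216R (45.5%, background 49.4%) and 9 in wild type (81.8%, background 43.6%), and per library at 7 and 3 in K215/216A, 5 and 8 in K215/216R, and 9 and 10 in wild type. Both wild type counts lay above the 4 mutant counts. Of the 11 GPI mannoprotein genes among the 38, both libraries had a peak at 8 in K215/216A (72.7%, background 57.8%), 6 in K215/216R (54.5%, background 49.4%) and 5 in wild type (45.5%, background 43.6%). This order of strains is also that of all genes. FLO1, FLO5 and FLO9 in the list of other mannoprotein and flocculin genes are near-identical copies, so peaks at them are uncertain.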

How the data were processed

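Peaks of the 6 ChIP libraries were analysed; no values of the 6 inputs entered. Per the submitters' processing notes, Bowtie 1.0.0, MACS2 2.1.1.20160226 and bedtools 2.25.0 were used with the sacCer3 genome; the control and the read filters are not given in the sources used here. The authors called peaks in each library separately, and the deposited lists hold 4575 and 4725 peaks for K215/216A, 3604 and 4822 for K215/216R, and 3123 and 4720 for wild type. Each deposited peak has a fold (a ratio of pileup to local background), a −log10 p, a −log10 q of at least 1.30, a score, and the distance from its start to its summit. The authors' merged lists were not used.

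Genes were taken from the RefSeq R64 table, with strand read from the systematic name. The members and lists were chosen with earlier results of these data known. Pileup and background were solved from fold and p under a Poisson tail, whole within 0.001 for 99.6% to 99.8% of peaks, and were thinned to the lowest genome background for the equal-depth counts, with the p threshold of the shortest list. Both are those of wild type replicate 1, whose peaks thinning therefore left unchanged. The other libraries were thinned by a single random draw. Recovery and counting were tested on simulated data. Counts per library were compared by two-sided exact permutation tests, adjusted by Benjamini-Hochberg over 6 tests. Every member is named; those with an upstream summit in both libraries of a strain are given in each library, and the others by range or call pattern. Motifs were not searched, because no promoter sequences were at hand. Python 3.11.15, numpy 2.4.6, scipy 1.17.1, pandas 2.3.3 and matplotlib 3.10.9 were used.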

Additional observations from a re-analysis of the deposited data

How the results depend on the processing

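The differences in the number of genes with a peak or an upstream summit stayed on the same side of the threshold under every setting run, but no p in this design can pass it, so this says nothing about stability. One difference turned its direction. For genes with a peak, K215/216R minus wild type was 2.0 and became −0.5 with peaks of −log10 q of at least 5. Leaving out each library in turn moved it between −1.5, without wild type replicate 1, and 5.5, when replicate 2 of wild type was left out, and it was −0.5 without K215/216R replicate 2. Leaving out each library moved K215/216A minus wild type between 2.0 and 9.0 genes with a peak, and K215/216A minus K215/216R between 1.0 and 6.0. For upstream summits the ranges were 2.0 to 6.0 (K215/216A minus wild type), 3.0 to 5.0 (K215/216R minus wild type) and −2.0 to 2.0 (K215/216A minus K215/216R).

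Deviations of same-numbered libraries over all genes correlated by 0.005, 0.123 and 0.025 for peaks and −0.015, 0.108 and −0.019 for upstream summits (K215/216A with wild type, K215/216R with wild type, K215/216A with K215/216R). The values for K215/216R with wild type were the largest, and replicate 1 was the shallower library in both strains (86.2 and 59.5). Whether replicate numbers pair the libraries cannot be told from these values. With the replicate block the differences were the same, 5.5, 2.0 and 3.5 genes with a peak and 4.0, 4.0 and 0.0 genes with an upstream summit, and its smallest p is 0.5. A depth of 59.5 in wild type replicate 1 limits what its list can show, and thinning cannot restore peaks that a shallow library missed.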
